A study of Mus musculus with 8 samples.

Results

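The cathepsins described here are 10 of the 31053 genes in the count table: Ctss, Ctsl, Ctsk, Ctsb, Ctsc, Ctsh, Ctsz, Ctso, Ctsd and Ctsa. They were chosen by name and picked on the genotype contrast of these same mice, because Ctss was far higher in ATGL-deficient tissue while Ctsb and Ctsd were at like levels in both genotypes. Their fold changes between genotypes, and the number of them past the threshold of the fit over all genes, are therefore a description, with no p-value and nothing supported by them. The samples are bulk RNA-seq libraries of brown adipose tissue (BAT), the heat-producing fat depot, from 4 wild-type (WT) and 4 Ucp1Δ/Δ mice, which the labels call ATGLKO. In Ucp1Δ/Δ mice floxed Pnpla2, the gene of adipose triglyceride lipase (ATGL), is removed by a Cre recombinase that the Ucp1 promoter drives, so the deletion is meant for UCP1-positive thermogenic adipocytes and not for macrophages or stromal cells. The strain label is C57BL6/J for all mice, and the floxed and Cre lines carry 129S and FVB elements in their names. Whether the WT mice carried the floxed alleles is not stated in the sources used here. The study's mice were males, the labels give an age of 10 weeks, and the legend in the study gives a younger age.

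Cathepsins are proteases that work mainly in lysosomes, where they are made as inactive proenzymes and mature in the acid lumen. Most are cysteine proteases of the papain family, whereas cathepsin D is an aspartic protease and cathepsin A a serine carboxypeptidase. Macrophages are rich in them, and they use cathepsin S and its relatives to trim the invariant chain from MHC class II molecules, to digest engulfed material and, when the enzymes are secreted, to cut matrix proteins.

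Pnpla2 matched the labels, at 2702 to 3152 CPM (counts scaled by library size) in WT mice and 403 to 531 in Ucp1Δ/Δ mice (log2 fold change (log2FC) -2.62 ± 0.17 SE, edgeR adjusted p = 1.97e-07). Total counts were 2017697 to 3115956 in WT and 2240612 to 2941799 in Ucp1Δ/Δ mice, so 3 counts, taken as the floor, were worth 0.933 to 1.53 CPM, for counting error only. The labels name the stromal vascular fraction as cell type, yet the 8 brown adipocyte markers summed to 13892 to 22115 CPM in WT and 9829 to 14344 CPM in Ucp1Δ/Δ mice, so adipocyte RNA was abundant and the libraries are called BAT here. Skeletal muscle markers ranged from 16.4 to 1190 CPM between WT mice and from 48.5 to 1583 CPM between Ucp1Δ/Δ mice, highest in WT mouse 1 and Ucp1Δ/Δ mouse 2. Of 8930 genes tested with edgeR's quasi-likelihood test, 21% were called at an adjusted p of 0.05 in either direction and 13.3% were called higher in Ucp1Δ/Δ mice. Of the calls, 63.6% were higher ones, and 78.5% with scaling by total counts alone, under which the median log2FC of all genes moved to 0.13.

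Among the 10 cathepsins, 8 passed the filter on low counts, while Ctsk and Ctso did not. Of these 8, 6 were called higher (Ctss, Ctsh, Ctsc, Ctsa, Ctsz and Ctsl), 0 lower, and Ctsb and Ctsd were not called. In 5 of the 8 every Ucp1Δ/Δ mouse lay above every WT mouse, against 14.4% of all genes tested. Since the genotype contrast chose the genes, nothing is read from these counts. The median log2FC of the 8 was 0.97, beside -0.0087 for all genes tested.

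**Figure D1:**
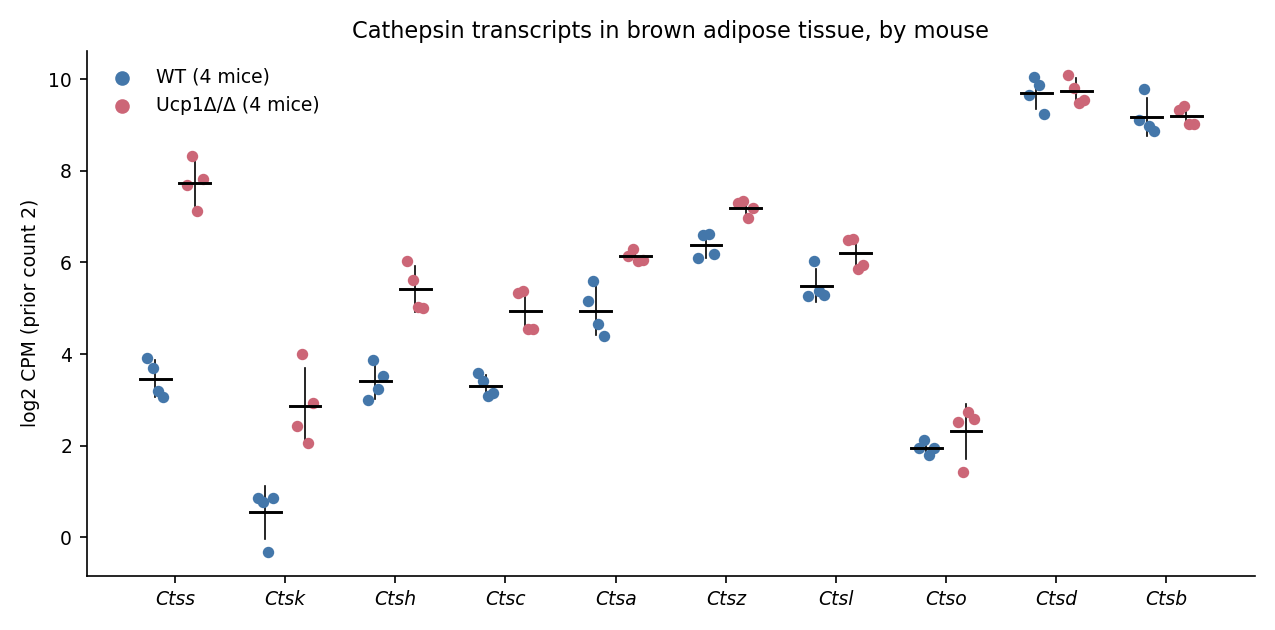
Each point is 1 mouse (blue, 4 WT; red, 4 Ucp1Δ/Δ), the vertical axis is log2 CPM with a prior count of 2, horizontal bars are means and vertical lines are 1 SD. Genes run from the largest to the smallest ratio of mean CPM, and the 2 genotypes lie apart for Ctss, Ctsk, Ctsh, Ctsc, Ctsa and Ctsz but overlap for Ctsl, Ctso, Ctsd and Ctsb.

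Ctss encodes cathepsin S, an endopeptidase of antigen-presenting cells that remains active at neutral pH. Its gene lies on the plus strand of chromosome 3 at 95526786 to 95556403 (GRCm38, the mm10 build). Ctss was at 14.3, 12.1, 8.35 and 7.60 CPM in WT mice 1 to 4, from 15 to 28 counts each. In Ucp1Δ/Δ mice 1 to 4 it was at 206, 319.9, 138 and 226 CPM, from 330 to 1028 counts. The lowest Ucp1Δ/Δ mouse was thus far above the highest WT mouse, and the Ucp1Δ/Δ mice also differed widely among themselves. The means were 10.6 ± 3.15 and 222 ± 75.1 CPM (SD, n = 4 each), a ratio of 21.0, and the fitted log2FC was 4.40 ± 0.29 (SE). Over all other settings and with each mouse left out, the log2FC of Ctss stayed between 4.18 and 4.58.

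The start regions of 4 members are shown because they hold motifs of factors known from lysosomal and myeloid genes, with the motif in capitals. RefSeq (GRCm38.p6) gave start regions of 300 bases, 250 before and 50 from the start onward, for 8 of the members, all but Ctsb and Ctsh, and positions count the start base as 0. The sequences of Ctss (chr3:95526656-95526805, plus strand), Ctsc (chr7:88277885-88278034, plus strand), Ctsd (chr7:142387908-142387937, minus strand) and the second Ctsa start (chr2:164833757-164833786, plus strand) read 5′ to 3′ as follows.
Ctss: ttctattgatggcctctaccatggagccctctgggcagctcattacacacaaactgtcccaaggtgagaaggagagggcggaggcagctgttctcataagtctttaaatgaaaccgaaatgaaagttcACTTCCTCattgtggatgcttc
Ctsc: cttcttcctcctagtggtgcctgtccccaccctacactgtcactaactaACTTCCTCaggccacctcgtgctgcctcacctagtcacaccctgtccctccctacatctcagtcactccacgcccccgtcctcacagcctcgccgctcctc
Ctsd: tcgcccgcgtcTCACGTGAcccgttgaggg
Ctsa: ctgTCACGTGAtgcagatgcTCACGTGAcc

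Ctss and Ctsc carry on the minus strand the motif GAGGAAGT, whose core is bound by PU.1, the myeloid factor that Spi1 encodes. The match spans the start in Ctss, with its first base at -2, and begins at -151 in Ctsc. Ctsd and the second Ctsa start carry TCACGTGA, the motif of the MiT/TFE factors that drive lysosomal genes, at -99 in Ctsd and at -13 and 4 in Ctsa. Its inner letters, CACGTG, were also found on their own at -245 in Ctsd and at -236 in Ctsl. TATAAA was found in Ctss at -233, and TGANTCA, the AP-1 type motif, in none of the start regions of these 8 members. On either strand, GAGGAAGT was in 3.20% of the 32851 start regions of all genes, TCACGTGA in 0.974%, CACGTG (which includes each TCACGTGA) in 7.15%, TGANTCA in 7.81% and TATAAA in 13.6%. Ctsk, Ctsz, Ctso and the first Ctsa start had none of the 5 motifs in these windows. These are letter matches, and binding was not measured.

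Ctsl and Ctsk encode the other endopeptidases of the cathepsin S kind. Ctsl, for cathepsin L, which digests proteins broadly in lysosomes and processes the invariant chain in thymus, was at 37.7, 64.5, 41.1 and 38.5 CPM in WT mice 1 to 4. Its values in Ucp1Δ/Δ mice 1 to 4 were 89.5, 91.2, 57.2 and 60.9 CPM. The genotypes overlapped, because WT mouse 2 lay above Ucp1Δ/Δ mice 3 and 4. The log2FC was 0.72 ± 0.22 (SE), and without WT mouse 1, 3 or 4 or Ucp1Δ/Δ mouse 1 or 2 it was 0.62 to 0.66 and no longer past the threshold, which is given as a description. In the annotation Ctsl shares 1742 exonic bases with Gm47123 on the opposite strand, which had 0 counts in all mice. Ctsl also shares 395 with the pseudogene Gm49230 on its own strand, which had no row of that name. Reads from the bases shared with Gm47123 may be missing from Ctsl in both genotypes. Whether the annotation used for counting held Gm49230 is not known.

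Ctsk, for cathepsin K, the collagen-degrading enzyme of osteoclasts, was close to the floor in WT BAT. It had 2, 2, 0 and 2 counts in WT mice 1 to 4 and 13, 49, 8 and 16 counts in Ucp1Δ/Δ mice 1 to 4. The genotypes did not overlap, but Ucp1Δ/Δ mouse 2 held more counts than the other 3 mice of its genotype together. The summed counts, 86 against 6, gave a depth-scaled ratio of 12.2 with a 95% counting interval of 5.38 to 34.2, which leaves out the spread between mice. Without Ucp1Δ/Δ mouse 2, a check chosen after seeing the data, the ratio was 7.48 (3.13 to 21.7). Ctsk lies on the same strand as Ctss and ends 17423 bases before it. The nearest tested genes around the pair were Cers2 and Arnt before and Golph3l and Ensa after it, none of which passed the test (edgeR adjusted p of 0.162 to 0.914). Their log2FC ran from -0.47 for Arnt to 0.66 for Ensa.

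Ctsb encodes cathepsin B, an abundant endopeptidase that also removes dipeptides from the carboxyl end. Its level was 548, 883, 503 and 465 CPM in WT mice 1 to 4 and 639, 678, 522 and 516 CPM in Ucp1Δ/Δ mice 1 to 4. All 4 Ucp1Δ/Δ values lay within the WT range. The log2FC was -0.026 ± 0.21 (SE), with a 95% interval of -0.53 to 0.48, so these 8 mice leave room for a difference of that size in either direction. Over the other settings the value ran from -0.14 to 0.21, with either sign. Ctsb shares 774 exonic bases with Fdft1, a cholesterol synthesis gene on the opposite strand, which fell (log2FC -1.59 ± 0.17 SE, edgeR adjusted p = 6.86e-06). Whether the counting used strand is not stated, so reads from the shared bases cannot be told apart.

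Ctsd, for cathepsin D, the main aspartic protease of lysosomes, was the most abundant member per length. It was at 803, 1053, 938 and 607 CPM in WT mice 1 to 4 and at 1098, 899.9, 709.6 and 749 CPM in Ucp1Δ/Δ mice 1 to 4. The genotypes overlapped throughout, and the highest value was in Ucp1Δ/Δ mouse 1. The log2FC was 0.023 ± 0.20 (SE), with a 95% interval of -0.47 to 0.51, and from -0.12 to 0.16 over the other settings. In the annotation 808 exonic bases are shared with Gm49369 on the same strand, which had 0 counts in all mice, so reads from those bases may be missing from Ctsd in both genotypes.

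The cysteine exopeptidases Ctsc, Ctsh and Ctsz lay apart between genotypes. Ctsc, for dipeptidyl peptidase 1, which activates the serine proteases of immune cell granules, was at 11.2, 9.86, 7.68 and 8.11 CPM in WT mice 1 to 4. In Ucp1Δ/Δ mice 1 to 4 it was at 39.3, 40.8, 22.6 and 22.7 CPM, and the log2FC was 1.78 ± 0.26 (SE). Mice 1 and 2 of the Ucp1Δ/Δ group were well above mice 3 and 4.

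Ctsh, for an aminopeptidase that also processes surfactant protein in lung, was at 7.14, 13.9, 8.68 and 10.6 CPM in WT mice 1 to 4. It was at 64.4, 48.5, 31.8 and 31.3 CPM in Ucp1Δ/Δ mice 1 to 4, with a log2FC of 2.13 ± 0.28 (SE). As for Ctsc, Ucp1Δ/Δ mice 1 and 2 were the higher ones. Ctsz, for the carboxypeptidase cathepsin X, was at 67.3, 96.3, 98.2 and 72.4 CPM in WT mice 1 to 4 and at 156, 162, 124 and 144 CPM in Ucp1Δ/Δ mice 1 to 4. The log2FC was 0.81 ± 0.18 (SE), the smallest among the members whose genotypes did not overlap. Ctsz shares 10 exonic bases with Nelfcd on the opposite strand, whose log2FC was 0.033 (adjusted p = 0.942).

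Ctsa, for the serine carboxypeptidase that also stabilizes lysosomal beta-galactosidase and neuraminidase, was at 34.7, 47.5, 24.4 and 20.3 CPM in WT mice 1 to 4. In Ucp1Δ/Δ mice 1 to 4 it was at 69.7, 78.1, 64.8 and 65.7 CPM. Here the spread was wider in WT (12.1 CPM, SD) than in Ucp1Δ/Δ mice (6.08 CPM), and the log2FC was 1.14 ± 0.23 (SE). Ctsa overlaps 495 exonic bases of Pltp, a phospholipid transfer protein gene on the opposite strand, which rose (log2FC 1.52 ± 0.19 SE, edgeR adjusted p = 3.95e-05), and 324 of Neurl2. What share of the Ctsa counts came from those bases cannot be told apart without the strand setting. Ctso, for the little-studied cathepsin O, had 6, 8, 8 and 6 counts in WT mice 1 to 4 and 14, 6, 14 and 12 counts in Ucp1Δ/Δ mice 1 to 4. The genotypes overlapped, and the depth-scaled ratio of 1.398 had a counting interval of 0.856 to 2.32.

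**Figure D2:**
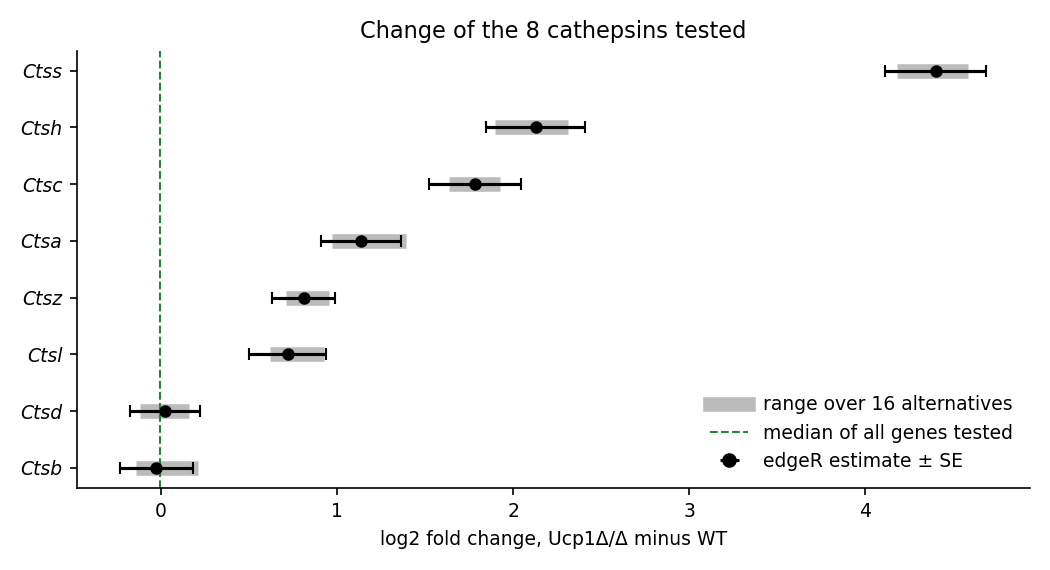
Points are the edgeR log2FC (Ucp1Δ/Δ minus WT) of the 8 cathepsins that passed the filter, black bars are 1 SE, grey bands are the range over 16 other settings and the dashed line is the median of all genes tested. Ctss stands at 4.40, 5 genes lie between 0.72 and 2.13, and the bands of Ctsd and Ctsb cross 0.

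Per kilobase of exon, the order of the levels changed mainly through Ctss. In WT mice the means were 362 CPM per kb for Ctsd, 99.1 for Ctsb, 58.0 for Ctsz, 7.79 for Ctss, 7.005 for Ctsl, 6.72 for Ctsa, 2.24 for Ctsh, 1.59 for Ctsc, 0.603 for Ctso and 0.484 for Ctsk. Ctss, Ctsl and Ctsa did not differ beyond their SD there, nor did Ctsh and Ctsc, or Ctso and Ctsk. In Ucp1Δ/Δ mice Ctsd was at 368 CPM per kb and Ctss, at 164 ± 55.3 (SD), came next, before Ctsz at 102 ± 11.7 and Ctsb at 97.3 ± 13.6, though these 3 overlapped within 1 SD. Ctsa, Ctsl, Ctsh, Ctsc, Ctsk and Ctso followed, from 14.8 down to 0.870. Lengths are those of all annotated exons together. The study names the library service, NEGEDIA Digital mRNA-seq, and whether its counts scale with length is not stated in the sources used here. If they do not, the order per kilobase has no meaning. In CPM, Ctsb at 589 stood above Ctss at 222 in Ucp1Δ/Δ mice.

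By counts, the make-up of the 10 cathepsins also differed between genotypes. The shares use the contrast that chose the members, so the shift follows from that choice and is a description. Ctsb and Ctsd together made 86.9% to 88.6% of the members' counts in WT mice and 67.6% to 73.3% in Ucp1Δ/Δ mice. Ctss made 0.935%, 0.554%, 0.512% and 0.616% in WT mice 1 to 4 and 8.67%, 13.7%, 8.22% and 12.4% in Ucp1Δ/Δ mice 1 to 4. Wilson 95% intervals on these shares reached up to 1.35% in WT and down to 7.41% in Ucp1Δ/Δ mice, for counting error only. The summed level of all 10 overlapped between genotypes, at 1234 to 2184 CPM and 1679 to 2372 CPM, whereas without Ctsb and Ctsd it was 162 to 249 CPM and 448 to 758 CPM.

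**Figure D3:**
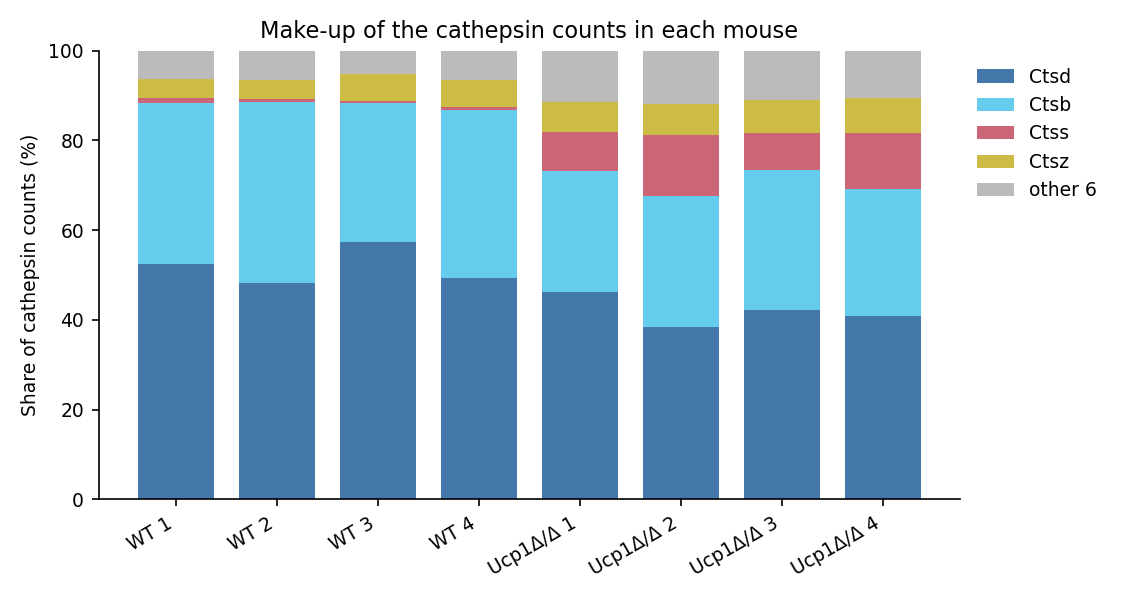
Stacked bars give each cathepsin's share of the summed counts of the 10 genes, in percent, for each of the 8 mice. Ctss, in red, widens from at most 0.935% in WT to at least 8.22% in Ucp1Δ/Δ mice, and the blue bars of Ctsd and Ctsb shrink together.

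Within the Ucp1Δ/Δ group mouse 2 was highest for 7 of the 10 genes and mouse 3 lowest for 7. The summed macrophage markers had the same extremes, at 1353, 1673, 1022 and 1060 CPM in Ucp1Δ/Δ mice 1 to 4, and so did the fibroblast and skeletal muscle markers, with 1713 and 1583 CPM in mouse 2 and 952 and 48.5 CPM in mouse 3. Other markers had another order, with endothelial ones lowest in mouse 2 (203 CPM) and highest in mouse 3 (221 CPM), pericyte ones highest in mouse 3 (336 CPM) and adipocyte ones lowest in mouse 2 (9829 CPM). The part of these cells in the members' spread was not tested. Among the members Ctso went the other way, lowest in mouse 2 and highest in mouse 3, while Ctsd and Ctsh were highest in mouse 1. How often each mouse was highest or lowest over all genes was not counted, so the order is a description. In bulk tissue, more cells of a type and more RNA per cell cannot be told apart.

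Macrophage markers moved with the genotype too. Of 13 listed, 11 were tested and 10 rose, and their sum was 117 to 173 CPM in WT and 1022 to 1673 CPM in Ucp1Δ/Δ mice. Of 7 fibroblast markers, all tested, 6 rose, with sums of 323 to 442 and 952 to 1713 CPM. Of the 8 dendritic cell markers 2 were tested and 1 rose, with sums of 17.2 to 29.6 and 27.9 to 43.3 CPM. The 1 that rose was Itgax (log2FC 5.93), which had 0 or 1 count in each WT mouse. Zbtb46 made most of the WT sum and did not pass (log2FC -0.115), and the rest were below the filter. Markers of T and NK cells summed to 3.01 to 9.41 CPM in WT and 8.36 to 18.4 CPM in Ucp1Δ/Δ mice. Those of neutrophils summed to 1.01 to 8.51 and 1.72 to 6.53 CPM, and those of B cells to 0 to 1.52 and 0.708 to 1.67 CPM. None of the markers of these cells passed the filter. Of the endothelial markers 1 of 6 rose, of the pericyte markers 2 of 5, and of the muscle markers 0 of 6 tested, while 3 of the 8 brown adipocyte markers fell. The part of these cells in the cathepsin changes was not tested.

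Divided by the summed macrophage markers of the same mouse, Ctss was the one member that was higher in every Ucp1Δ/Δ mouse than in every WT mouse. Its ratio was 0.0530 to 0.0903 in WT and 0.135 to 0.213 in Ucp1Δ/Δ mice, and it remained apart without Lyz2, the marker with the most counts, at 0.0667 to 0.115 and 0.208 to 0.320. Ctsh and Ctsk overlapped. The other 7 were lower in every Ucp1Δ/Δ mouse, such as Ctsc at 0.0565 to 0.0710 in WT and 0.0215 to 0.0290 in Ucp1Δ/Δ mice and Ctsb at 3.24 to 5.09 and 0.405 to 0.510. The summed markers were themselves far higher in Ucp1Δ/Δ mice, so a member that rose less than the sum came out lower. These ratios use the contrast that chose the members and are a description, not a level per macrophage. They also depend on the markers summed, whose own ratios of mean CPM between genotypes ran from 1.44 for Cd14 to 24.8 for Cd68. That of Cd68 was above the 21.0 of Ctss, so the Ctss result is for the sum, and single markers were not used in turn.

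**Figure D4:**
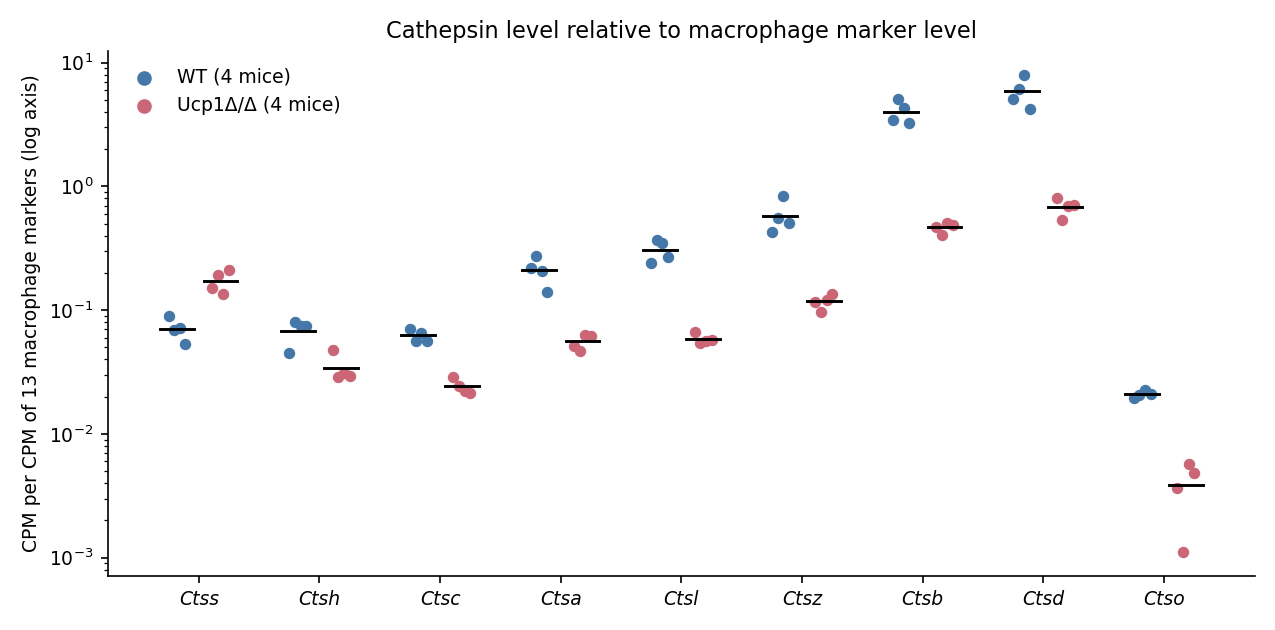
Each point is 1 mouse (blue, WT; red, Ucp1Δ/Δ), the vertical axis is a member's CPM over the summed CPM of 13 macrophage markers on a log scale and bars are means. Ctss lies higher in Ucp1Δ/Δ mice, Ctsh overlaps and the other genes shown lie lower. Ctsk is left out because it was at 0 in 1 WT mouse.

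The genes whose pattern over the 8 mice was most like that of Ctss, by root mean square distance of log2 CPM centred on the WT mean, were Cd84, Cd68, Capg, Rnf128 and Ccl9. Their distances were 0.389 to 0.410, among 6428 genes with a mean of at least 10 CPM. Cd84, a leukocyte adhesion receptor, had a log2FC of 4.66 ± 0.36 (SE), and Cd68, a lysosomal glycoprotein of macrophages that is also among the 13 markers, 4.64 ± 0.34. Of the other members Ctsk was nearest, at 1.44, with 1.48% of those genes closer, then Ctsh at 1.67 and Ctsc at 1.88, while Ctsd at 3.02 and Ctsb at 3.03 were farthest. With values centred on the WT mean, the distance depends largely on the size of the genotype change. That change chose the members, so their order here is a description. Ctsk did not pass the filter and had 0 to 2 counts in WT mice.

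The genes that make, carry, restrain and use cathepsins were then read from lists. Of 46 such genes tested, 18 rose and 1 fell, beside 13.3% of all 8930 genes called higher and 681 of them called lower. The list of 13 other cathepsins held 10 genes at 0 in all mice, which allows at most 0.933 to 1.53 CPM in a mouse, many of them placental or granulocyte enzymes. Ctsf was the one tested, with a log2FC of -0.079 ± 0.21 (SE, edgeR adjusted p = 0.84). Ctsw, the lymphocyte cathepsin, had 0, 0, 1 and 3 counts in WT mice 1 to 4 and 9, 6, 7 and 2 in Ucp1Δ/Δ mice 1 to 4.

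Cathepsin inhibitors were tested in 4 of 15 listed genes. Serpinb6a, an intracellular serpin, rose from 22.4 ± 6.32 to 80.6 ± 14.9 CPM (SD, n = 4 each, edgeR adjusted p = 2.21e-05). Whether Serpinb6a inhibits any of the 10 members was not examined here. Ctla2a (log2FC 0.63, adjusted p = 0.0772), Cstb (0.26, 0.487) and Cst3 (0.10, 0.749), which encode a cathepsin L inhibitor of the propeptide kind, cystatin B and cystatin C, did not pass. Cst3 was the most abundant of them, at 540.5 ± 112 CPM in WT and 581 ± 99.96 CPM in Ucp1Δ/Δ mice.

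Lysosomal sorting genes, which tag or carry cathepsins to the lysosome, were all tested, and of 13 none rose and 1 fell. Of all 8930 genes tested, 1191 were called higher and 681 lower, so 1 lower call in 13 is near that background. That gene was Sort1, the sortilin receptor, at 118 ± 16.5 CPM in WT and 74.3 ± 13.03 CPM in Ucp1Δ/Δ mice (log2FC -0.67 ± 0.18 SE, edgeR adjusted p = 0.0135). Igf2r, the cation-independent mannose 6-phosphate receptor, had a log2FC of 0.58 and missed the threshold (adjusted p = 0.0522), as did Gga3 (0.84, 0.0819) and Vps35 (-0.29, 0.225). The list's median log2FC was -0.17.

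Of 12 other lysosomal peptidases and partners, 9 were tested and 3 rose. Lgmn, the asparaginyl endopeptidase that matures several cathepsins, rose from 4.07 ± 1.24 to 14.4 ± 4.24 CPM (log2FC 1.83 ± 0.31 SE, edgeR adjusted p = 0.000566). Grn, the gene of progranulin, rose by a log2FC of 1.39 (adjusted p = 0.00019) and Dpp7 by 0.96 (0.0268). Scpep1, a serine carboxypeptidase related to cathepsin A, was at 0.52 and just missed the threshold (adjusted p = 0.0505).

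Of the MHC class II route, where cathepsin S acts, 7 of 11 genes were tested and all 7 rose, with a median log2FC of 2.35. H2-Aa rose from 67.5 ± 17.9 to 382 ± 73.8 CPM (edgeR adjusted p = 1.41e-06). Cd74, whose product, the invariant chain, is the substrate of cathepsin S, rose from 59.6 ± 17.8 to 324 ± 63.8 CPM (log2FC 2.45 ± 0.23 SE, adjusted p = 2.46e-06). H2-Eb1 and H2-Ab1 rose by 2.48 and 2.30.

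Among 7 transcription factors of lysosomal and myeloid genes, 6 were tested and 4 rose. Spi1, which encodes PU.1, rose from 3.68 ± 0.932 to 41.7 ± 11.8 CPM (log2FC 3.51 ± 0.28 SE, edgeR adjusted p = 6.92e-07). Irf8 rose by 2.51, Mitf by 1.36 and Nfatc1 by 1.28 (adjusted p of 2.6e-05, 0.00485 and 0.00326). Tfeb and Tfe3 did not pass, at adjusted p of 0.0738 and 0.753.

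Osteoclast-type genes, the setting in which cathepsin K is best known, were tested in 6 of 11, and 3 rose. Atp6v0d2, a proton pump subunit of macrophages and osteoclasts, had 1 count in all WT mice together and 422 in Ucp1Δ/Δ mice, a depth-scaled ratio of 359 with a counting interval of 64.1 to 14222 (edgeR adjusted p = 5.18e-07). Mmp14, a membrane-bound collagenase, rose by a log2FC of 1.43 and Tcirg1, another pump subunit, by 1.56 (adjusted p of 0.000848 and 0.00603), while Ostm1 did not pass (0.61, 0.223). The remaining tested genes, Acp5 and Clcn7, had a log2FC below 0 and did not pass (-0.31, 0.303 and -0.087, 0.872). Calcr and Oscar had 0 counts in all mice. The 9 granule serine proteases, many of them activated by cathepsin C, were all below the filter, with summed levels of 0.668 to 8.51 CPM in WT and 6.44 to 12.4 CPM in Ucp1Δ/Δ mice.

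**Figure D5:**
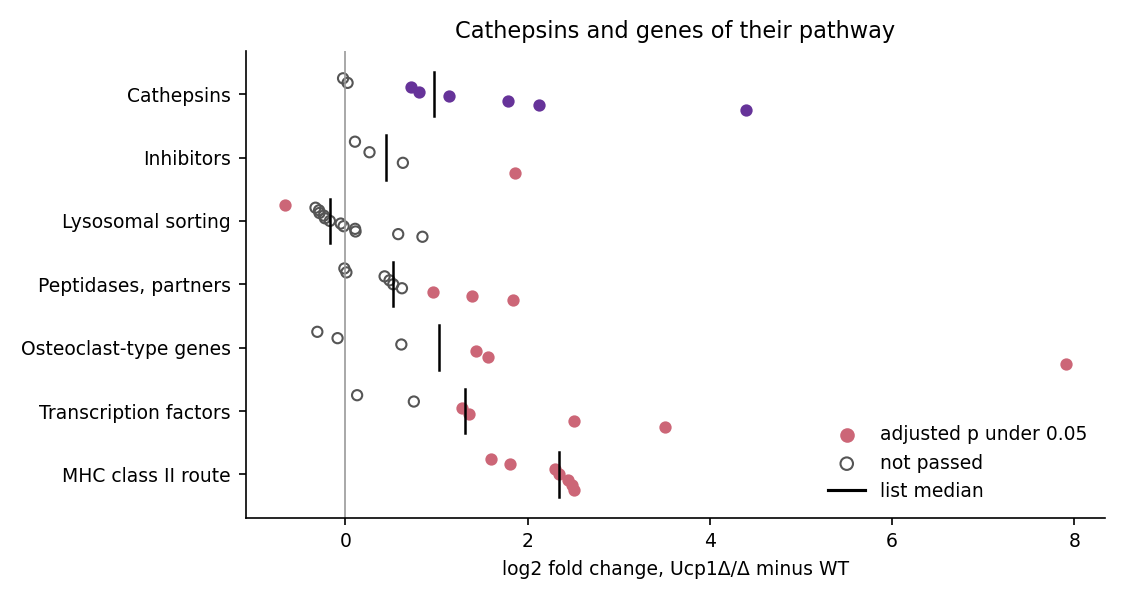
Each point is 1 tested gene, the horizontal axis is its edgeR log2FC (Ucp1Δ/Δ minus WT), filled points passed an adjusted p of 0.05 (purple for cathepsins, red for other genes), open ones did not, and vertical bars are list medians. All 7 MHC class II genes lie above 1.5, the 13 sorting genes lie around 0, and the far point is Atp6v0d2, whose fitted value rests on 1 WT count.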

How the data were processed

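RNA-seq of BAT from 4 WT and 4 Ucp1Δ/Δ mice was analysed from the deposited whole-number counts per Ensembl gene, which the authors left without normalization. By the study's methods, reads were trimmed with bbduk, aligned to mm10 with STAR and counted with HTseq-counts, whereas the submitters' processing notes list Trimmomatic and HISAT2. The strand setting and annotation release are not given in the sources used here. The deposited log2 values equal the log2 of the count times 1 factor per mouse, plus 1, and served 1 alternative.

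In R 4.3.3 with edgeR 4.0.16, genes were filtered with filterByExpr, scaled by TMM and tested over 8930 genes by the quasi-likelihood test on genotype, with Benjamini-Hochberg adjustment. CPM used TMM-scaled totals. SE was obtained by dividing the absolute log2FC by the root of the F statistic. Intervals of log2FC are at 95%. Positions and overlaps came from GENCODE (GRCm38), and 30934 of 31053 identifiers had a symbol. 3 listed genes had no row. The members and lists were chosen with earlier results of these data known. Genes named were the members, Pnpla2, up to 4 per pathway list with the smallest adjusted p and up to 2 called in the opposite direction, the 5 nearest to Ctss in pattern, and the 2 nearest tested neighbours on each side of Ctss and Ctsk. Genes overlapping members were named after the annotation was read. Acp5, Clcn7, Calcr and Oscar were named in addition from the osteoclast-type list. Nothing states how the mice were spread over litters or preparation days, so p-values measure only the spread between these samples, which may be in part technical. Chi-square per degree of freedom between mice of 1 genotype was 4.69 to 23.2, so no library was a duplicate of another. Scripts were tested on simulated data. Alternatives used DESeq2 1.42.0, limma 3.58.1, other scaling and filters, a replicate block and each mouse left out.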

Additional observations from a re-analysis of the deposited data

Results flagged for a closer look

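Of 72 groups of 4 mice examined, 6 held a mouse that lay apart from the other 3 by Dixon's ratio of gap to range on log2 CPM, and chance gives about 1 in 20, or 3.6. Ctsl, Ctsk and Ctso were among them. Ctsl was high in WT mouse 2 (ratio 0.842, 144 counts against 74 to 123). Ctsk was low in WT mouse 3 (0.914, 0 counts against 2 in each of the others), and Ctso was low in Ucp1Δ/Δ mouse 2 (0.841, 6 counts against 12 to 14). In the lists, Mitf was high in WT mouse 1 (0.880), Mmp14 was low in WT mouse 3 (0.908), and Atp6v0d2 had its single WT count in mouse 1 (1). The rate of 1 in 20 is for values without ties. The flags of Ctsk and Atp6v0d2 rest on tied counts near the floor, so 6 and 3.6 are not directly comparable.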

How the results depend on the processing

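The number of called genes was 1872, and 1195 in a separate fit with a filter of at least 10 counts in every mouse, which tested fewer genes (6928). Other counts stayed within 1.5 times: 1719 with the replicate block, 1888 with DESeq2 size factors, 2075 with the DESeq2 Wald test and 2513 with at least 1 count in any mouse, and 1345 to 2155 with each mouse left out. The replicate numbers belong to different mice, and same-numbered mice deviated together with correlations of -0.20 to 0.30. The own number was the best match only for number 3 (0.30). So few correlations show no pairing by number but cannot exclude a shared litter or preparation day. The number of pathway genes called was 19 with the replicate block, as without it, and ranged from 14 to 25 over all settings. As a description, 5 to 7 members were past the threshold, and 6 with the replicate block. These counts include Ctsk, left out by the main filter, which was past the threshold in all 7 settings that tested it. Ctso was tested in 7 settings and was past it in none. All 128 fold changes of the 8 tested members moved by less than 1 SD between mice. The depth, at 2017697 to 3115956 counts per mouse, limits Ctsk, Ctso and the other genes near the floor.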
